A study of Mus musculus with 4 samples.

Results

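The comparison described here set the second of 2 independent culture sets of B16-F10 cells against the first. B16-F10 is an established mouse melanoma line that makes pigment. Its members are the arrays whose titles carry the set number, so all 4 arrays of the series took part, 2 from set 1 and 2 from set 2. Each set held 1 control culture and 1 culture given recombinant Cdh1 at 100 ng/mL, both harvested after 24 h, and the medium of all cultures held fetal bovine serum. Cdh1 is the mouse gene symbol for E-cadherin, a cell adhesion protein. Total RNA of each culture was labelled with Cy3 and hybridised to a 1-colour Agilent array. The treatment was a term of the model, so the difference reported is set 2 minus set 1 at equal treatment. The labels do not give passage, density or date of the cultures, and a set here is 2 cultures and 2 arrays.

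Repeat cultures of a tumour line can differ in programmes that respond to the state of the culture. Interferon signalling is one of them: secreted interferon activates factors such as Stat2 and Irf9, which bind the interferon-stimulated response element and raise antiviral genes and the machinery that presents peptides on MHC class I. Pigmentation is another, since the factor Mitf and its partners drive the enzymes and transporters of the melanosome, the organelle that makes melanin. Sterol synthesis, the oxidative stress response and the p53 pathway likewise follow nutrients, redox state and DNA damage.

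Among lists of more than 2 tested genes, interferon-stimulated genes were furthest apart, and they were lower in set 2. Pigment genes such as Tyr and Trpm1 were also lower, though the pigment enzyme genes Tyrp1 and Dct were not called. Genes of MHC class I presentation, sterol synthesis, oxidative stress and p53 response were also lower. The genes of the lineage regulators moved both ways. The promoters below show a sequence that several interferon-stimulated genes share and one that several pigment genes share. They come from RefSeq, assembly GRCm38.p6, and each window of 100 bases lies before the gene's start, written 5′ to 3′ on the gene's strand. Capitals mark the ISRE core, which is GAAA, any 2 bases and GAAA again, or the M-box, TCATGTG, which is a form of the site that Mitf binds. Both motifs were searched on both strands from 250 bases before to 50 after the start. Isg15 was chosen for display after its values were seen, and Tyrp1 is shown as a pigment gene that was not called.
Oas1a, chr5:120907526-120907625, minus strand: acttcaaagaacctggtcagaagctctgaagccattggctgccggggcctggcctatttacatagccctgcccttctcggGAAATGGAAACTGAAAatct
Isg15, chr4:156200842-156200941, minus strand: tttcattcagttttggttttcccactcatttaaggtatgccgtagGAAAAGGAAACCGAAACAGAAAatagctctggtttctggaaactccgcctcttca
Trpm1, chr7:64153646-64153745, plus strand: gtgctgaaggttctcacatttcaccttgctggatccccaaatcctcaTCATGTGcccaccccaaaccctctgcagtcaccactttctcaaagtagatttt
Tyr, chr7:87493513-87493612, minus strand: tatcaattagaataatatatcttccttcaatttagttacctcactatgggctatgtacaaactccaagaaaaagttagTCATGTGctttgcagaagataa
Tyrp1, chr4:80834113-80834212, plus strand: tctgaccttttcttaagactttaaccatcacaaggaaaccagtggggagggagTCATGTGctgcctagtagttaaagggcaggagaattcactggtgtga

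Per the file headers, 1 slide held the 4 arrays and 1 scan read them, with set 1 at positions 1 and 2 and set 2 at positions 3 and 4. Position on the slide and culture set cannot be told apart. On each array, 59.3% to 61.3% of non-control spots passed the scanner's background test, and the 75th percentile of the processed intensity lay between 568.7 and 623.2. The 7 melanoma markers Tyr, Tyrp1, Dct, Pmel, Mlana, Mitf and Sox10 were well above background on all 4 arrays. The gene Cdh1 was dim, at -4.56 and -4.55 in control and Cdh1-treated cells of set 1 and -4.38 and -4.45 in those of set 2. It was not called, with a difference of 0.14 and an SE of 0.06 (limma, adjusted p 0.220). Signals are log2 values relative to the 75th percentile of their own array, so 0 is that percentile, and values of different genes are not compared. Values of a gene are given in the order control set 1, Cdh1 set 1, control set 2 and Cdh1 set 2.

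Of 31155 probes that were well above background on all 4 arrays, 3649 (11.7%) were called between the sets at a limma adjusted p under 0.05 with Benjamini-Hochberg adjustment. Of the tested probes, 1777 (5.7%) were called higher and 1872 (6.01%) lower in set 2. The probes represented 14002 named genes, each by its brightest probe, of which 747 (5.33%) were called higher and 1095 (7.82%) lower. Of the called genes, 424 (3.03% of all genes) differed at least 2-fold. The difference was also taken between the control arrays alone, the control pair, and between the Cdh1 arrays alone, the Cdh1 pair. Its sign was the same in both for all 1842 called genes, which the calling largely fixes, since disagreement between the pairs is the residual of the fit. The median size of a called difference was 0.66 and the smallest was 0.38. Both arrays of set 2 lay above both of set 1 in 4480 genes (32%) and below them in 5746 genes (41%). The lowest adjusted p was 0.0217, and with 1 residual degree of freedom per probe the calls rest on the variance that limma pools over probes. With 2 arrays on each side, an exact permutation test (two-sided) cannot go below 0.333, and no such test was used. The number of calls depended strongly on the settings of the fit: it was 0 without a filter on dim probes (limma, 56601 probes, 6748 of them at an unadjusted p under 0.05), 2165 when a probe needed to be above background only on the 2 arrays of 1 set, and 12046 with a trended, robust prior. With 1 array left out it was between 331 (without the control array of set 1) and 735 (without the Cdh1 array of set 1), and 582 without the control and 564 without the Cdh1 array of set 2.

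The size of the differences was also described without a test. At least 2-fold differences in the same direction in both pairs, which share no array, were found for 553 probes (1.77%), 200 of them higher and 353 lower in set 2. Across the 31155 probes, the differences of the control pair and of the Cdh1 pair were correlated, with Pearson's r at 0.744 and Spearman's rho at 0.687. Probes are not independent replicates, and the arrays of a set shared their place on the slide. The SD of the difference was 0.41 in the control pair and 0.39 in the Cdh1 pair. Repeated spots of 1 probe within an array had a median SD of 0.04 on each array, over 290 probes printed 10 times. The 8 spike-in probes above background, which report control RNA added to the samples, had an SD of difference of 0.06 in the control pair and 0.11 in the Cdh1 pair. In the same fit, Cdh1 against control gave 0 calls with limma, a lowest adjusted p of 0.678 and 2205 probes at an unadjusted p under 0.05, against 11343 such probes for the sets.

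**Figure D1:**
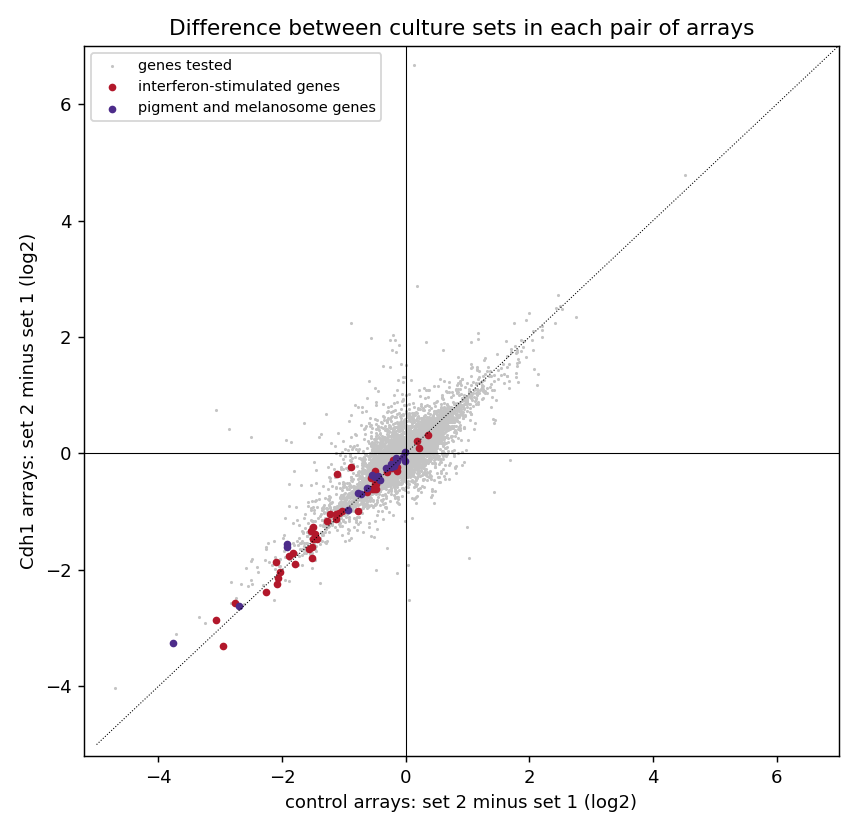
Each point is 1 of 14002 genes, with the set 2 minus set 1 difference (log2) of the control arrays on the x axis and that of the Cdh1 arrays on the y axis. Red points are 44 interferon-stimulated genes, of which 41 lie below 0 on both axes, purple points are 22 pigment genes, and the dotted line marks equal differences.

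The 12 largest falls among called genes with an established name held antiviral genes, pigment cell genes and genes of other tissues. Cck encodes the peptide hormone cholecystokinin. Its signal was 0.18 and -0.27 in set 1 and -4.51 and -4.30 in set 2, a difference of -4.37 with an SE of 0.19 (20.6-fold lower, adjusted p 0.0217). Trpm1, a cation channel of melanocytes and retinal cells, had 4.01, 3.74, 0.24 and 0.48, a difference of -3.51 with an SE of 0.15 (adjusted p 0.0217). Its further probes gave -3.20 and -0.42, so probes of Trpm1 disagreed in size. The long non-coding RNA Lncbate10 had -1.22, -1.58, -4.94 and -4.67 (difference -3.41, SE 0.18, adjusted p 0.0229). In these genes, picked by size of fall, both arrays of set 2 lay more than 3 below both of set 1 on the log2 scale.

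Lcp1, an actin-bundling protein of leukocytes that tumour cells can also express, had -0.66, -0.81, -4.003 and -3.61 (difference -3.08, SE 0.16, adjusted p 0.0229). Vwf, the von Willebrand factor of endothelial cells, had -1.28, -1.73, -4.10 and -4.30 (difference -2.70, SE 0.09, adjusted p 0.0217). Sox9, a factor of neural crest and melanocyte precursors, had 0.43, 0.20, -2.36 and -2.39 (difference -2.69, SE 0.08, adjusted p 0.0217). A further probe of Sox9 gave -1.59. Slc24a4, a sodium, potassium and calcium exchanger tied to pigmentation, fell by 2.66 with an SE of 0.06, and its further probe by 2.47. Gch1, the first enzyme of tetrahydrobiopterin synthesis, had 1.47, 1.40, -1.27 and -1.09 (difference -2.61, SE 0.09, adjusted p 0.0217). AA467197 had 0.28 and 0.15 in set 1 and -2.45 on both arrays of set 2, a difference of -2.66. The remaining falls were those of the antiviral genes Irf7, Oasl1 and Oas1a, described with their programme. The set 1 and set 2 values did not overlap in any of the 12 genes, which their selection as the largest called falls largely fixes.

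The 12 largest rises among called genes with an established name ran from 1.90 to 2.55 and were mostly of membrane and secreted proteins. Outside this group, and named after its value was seen, the transcript 4930579F01Rik had the largest rise of all genes tested, 4.65 with an SE of 0.09 (adjusted p 0.0217). Prkg2, a cyclic GMP-dependent kinase, had -2.70, -2.55, 0.05 and -0.19 (difference 2.55, SE 0.12, adjusted p 0.0223). Icam2, an adhesion molecule of endothelial cells and leukocytes, had -2.68, -2.69, -0.16 and -0.21 (difference 2.50, SE 0.06, adjusted p 0.0217). Anpep, a membrane aminopeptidase, had -4.45, -4.67, -2.01 and -2.17 (difference 2.47, SE 0.06, adjusted p 0.0217). These genes were 5.86-fold, 5.65-fold and 5.55-fold higher in set 2, and the control and Cdh1 arrays of a set lay close to each other. Mal, a proteolipid of myelin and of apical membranes, had -3.60, -3.61, -1.19 and -1.36, a difference of 2.33 with an SE of 0.08. Abcc2, an efflux transporter, rose by 2.19 (SE 0.06), Tspan2, a tetraspanin, by 2.16 (SE 0.06) and Asic4, an ion channel subunit, by 2.12 (SE 0.12). Sema3f, a secreted axon guidance protein, had -3.89, -3.74, -1.68 and -1.74 (difference 2.11, SE 0.08). The matrix protein genes Tgfbi and Col8a1 rose by 1.998 and 1.996, with SEs of 0.06 and 0.15, and Igsf21 rose by 1.90 (SE 0.06). Htra3, a secreted serine protease, had a main probe that rose by 2.20 (SE 0.13) and a further probe that gave 0.29. The probe of Col8a1, like that of Oasl1, lay in the last 24 rows of the array, an edge where spots varied more in earlier results of these data.

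**Figure D2:**
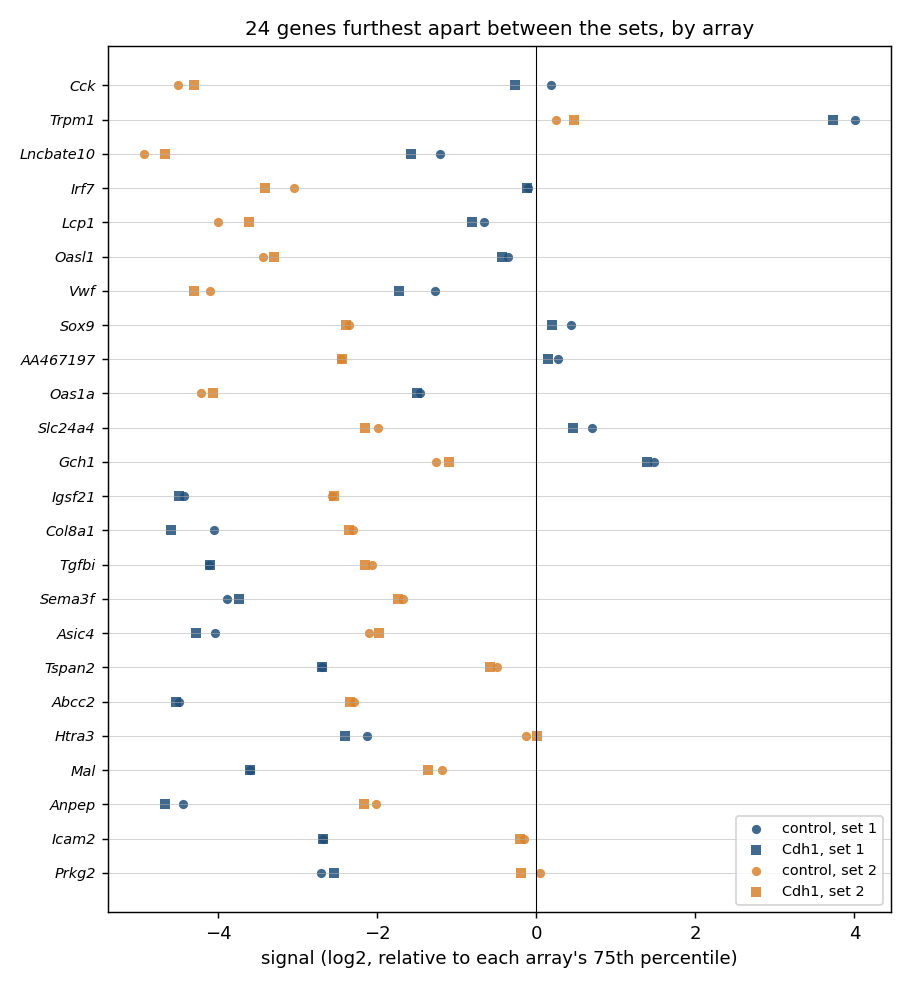
Signal (log2, relative to the 75th percentile of each array, x axis) of the 12 genes with the largest rise and the 12 with the largest fall, on each of the 4 arrays. Blue marks are set 1 and orange marks set 2, and circles are control and squares Cdh1 arrays. In every gene both orange marks lie on 1 side of both blue marks, which the selection of the genes largely fixes.

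Interferon-stimulated genes were lower in set 2 almost throughout the list. Of 56 listed genes, 44 were tested, 10 were below background on at least 1 array and 2 had no named probe. The list held 33 genes called lower and 0 called higher, against 7.82% and 5.33% of all genes, the shares that the counts of each later list are set beside. Its median difference was -1.10, and -1.13 in the control pair and -1.03 in the Cdh1 pair, against -0.03 over all genes. Both arrays of set 2 lay below both of set 1 in 41 of the 44 genes, against 41% of all genes. The list was one of those that earlier results of these data had shown to differ between the sets, so its direction is not independent evidence.

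Irf7, the factor that amplifies interferon production, had -0.10, -0.12, -3.05 and -3.42 (difference -3.13, SE 0.11, adjusted p 0.0217). Oas1a, a sensor of double-stranded RNA, had -1.46, -1.50, -4.22 and -4.06 (difference -2.66, SE 0.08, adjusted p 0.0217). Oasl1, a related protein, had -0.36, -0.43, -3.43 and -3.29 (difference -2.97, SE 0.08, adjusted p 0.0217). The sets differed 8.73-fold in Irf7, 6.33-fold in Oas1a and 7.83-fold in Oasl1. The arrays of the sets did not overlap in these genes, which their selection by size of fall largely fixes. Usp18, which removes the ubiquitin-like protein Isg15 from its targets and dampens interferon signalling, had -1.44, -1.46, -3.70 and -3.84 (difference -2.32, SE 0.07). Xaf1, an interferon-induced antagonist of apoptosis inhibitors, had -1.21, -1.16, -3.29 and -3.41 (difference -2.16, SE 0.07). Isg15 itself had 3.24, 3.23, 1.17 and 1.09, a difference of -2.10 with an SE of 0.06 (adjusted p 0.0217). The 3 members with higher values in set 2, named after their values were seen, were Irf1, at 0.33 with an adjusted p of 0.0598, Uba7, at 0.19, and Herc6, at 0.15, and none was called. Irf1 is a factor that also responds to interferon gamma and to NF-kappaB.

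The upstream side of the pathway was nearer to equal. Among 16 tested components of interferon signalling, such as receptors, sensors and their adaptors, 3 were called lower and 0 higher, and the median was -0.05. Nlrc5, the activator of MHC class I genes and itself interferon-induced, had -1.69, -1.24, -3.82 and -3.76 (difference -2.32, SE 0.12, adjusted p 0.0229). The sensor Cgas gave -0.47 (SE 0.07, adjusted p 0.0463), but its further probe gave 0.18. The adaptor Sting1 had 2.40, 2.31, 1.84 and 1.85 (difference -0.51, SE 0.06, adjusted p 0.0391). The inhibitor Socs1 and the receptor chain Ifngr2 gave -0.30 and -0.23 and were not called. Irf9 and Stat2, factors that bind the response element and were in the interferon-stimulated list, gave -1.48 and -0.64, both called.

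MHC class I presentation genes were called lower in set 2 in 10 of 18 tested members (all genes, 7.82%) and higher in 0 (all genes, 5.33%), with a median of -0.58. The peptide transporter gene Tap2 had 1.51, 1.61, -0.27 and -0.09 (difference -1.74, SE 0.06, adjusted p 0.0217). Its partner Tap1 had -0.98, -1.02, -1.95 and -1.91 (difference -0.93, SE 0.06, adjusted p 0.0249). The heavy chain genes H2-K1 and H2-D1 gave -0.83 (SE 0.06) and -0.77 (SE 0.07), and the immunoproteasome subunit gene Psmb9 gave -0.80 (SE 0.09), all called. The genes of the H2 family are near-identical in places, and probes may bind more than 1 of them. B2m, the light chain, had 5.55, 5.52, 4.95 and 4.89, a difference of -0.61. The constitutive proteasome subunits, in a separate list of 26 genes, gave 0 calls with limma (0 also at an unadjusted p under 0.05) and a median of -0.09, and the 2 of them furthest from 0 were Psmd4 at -0.18 and Psma4 at -0.15.

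**Figure D3:**
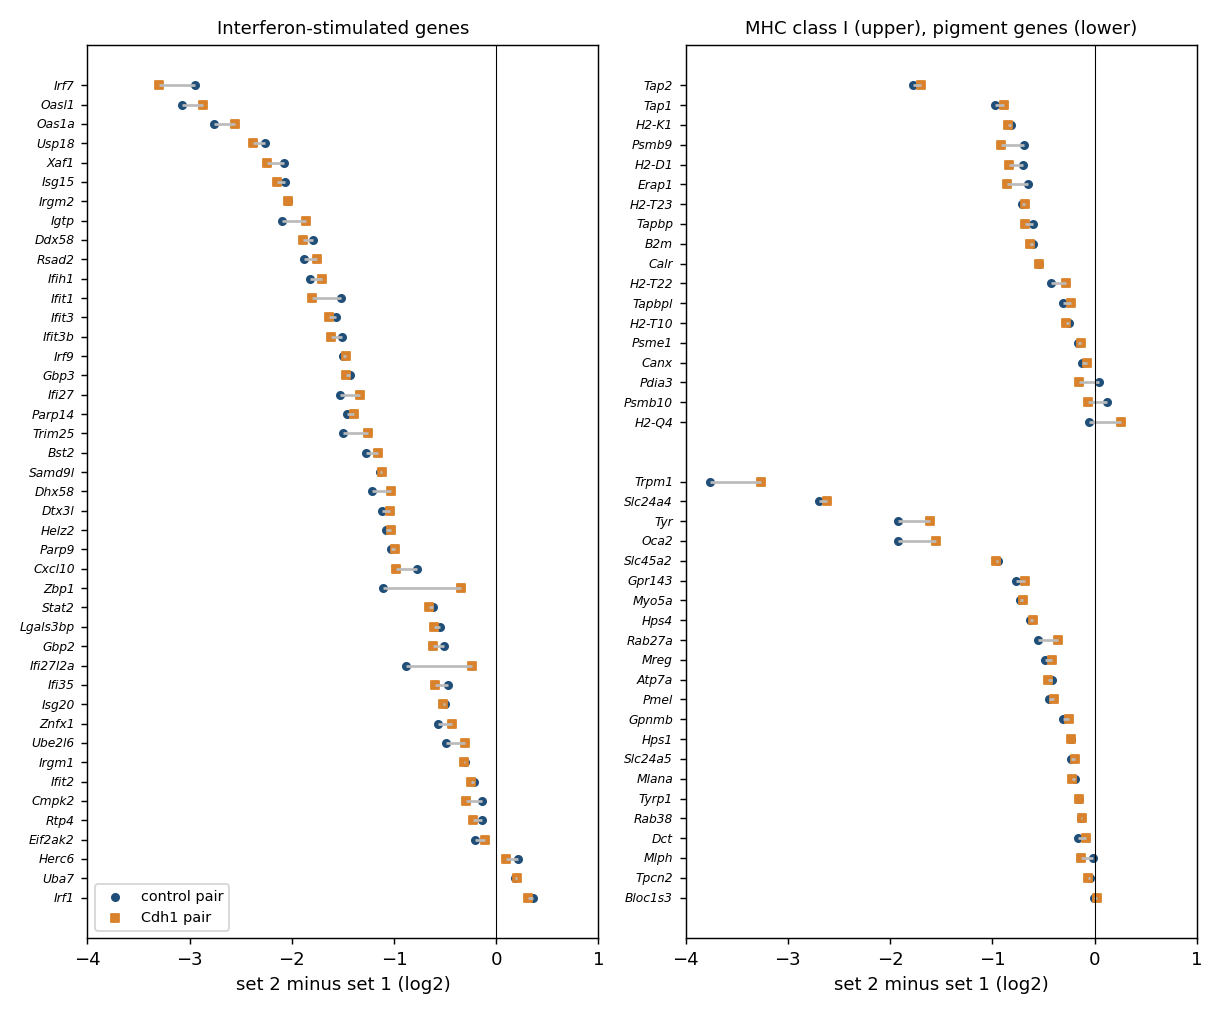
Difference between the sets (set 2 minus set 1, log2, x axis) for tested members of 3 lists, with the control pair in blue circles and the Cdh1 pair in orange squares, joined by a grey line. Interferon-stimulated genes are on the left, and MHC class I and pigment genes on the right, where Trpm1 at -3.51 and Tap2 at -1.74 have the lowest mean differences of their lists.

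Promoters of interferon-stimulated genes often held the response element. Of 35 tested list members with a promoter in the table, 17 (48.6%) held the ISRE core, against 3.55% of 11185 tested genes with a promoter and 3.44% of all 32851 promoters of the same length. Among genes called lower the share was 6.41%, and 4.46% outside the interferon and MHC lists. Among genes called higher it was 3.89%. The 17 list members with the core had a median difference of -1.60 and 15 were called lower. The 18 without it in this window had a median of -0.56 and 12 called lower, among them Irf7. The windows of Oas1a and Isg15 printed above each hold overlapping copies of the core, 2 in Oas1a and 3 in Isg15.

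Pigment genes were lower in set 2 for 11 of 22 tested members, and 0 were higher, with a median of -0.43. Both arrays of set 2 lay below both of set 1 in 20 of them, against 41% of all genes. Tyrosinase, Tyr, the rate-limiting enzyme of melanin synthesis, had 3.82, 3.66, 1.90 and 2.04 (difference -1.77, SE 0.10, adjusted p 0.0234). Oca2, a melanosome channel protein, had 1.54, 1.35, -0.38 and -0.21 (difference -1.74, SE 0.12, adjusted p 0.0248). Slc45a2, a melanosome transporter, had 5.71, 5.67, 4.77 and 4.70 (difference -0.95, SE 0.06, adjusted p 0.0241). These 3 genes, with Trpm1 and Slc24a4, were the members furthest apart. The other melanin enzymes were not called, with Tyrp1 at -0.15 (adjusted p 0.176) and Dct at -0.12 (adjusted p 0.261). The structural protein gene Pmel was called at -0.42 (SE 0.06, adjusted p 0.0458), and Mlana gave -0.21 (adjusted p 0.111). The M-box was found in 6 of 17 pigment gene promoters (35.3%), against 2.87% of tested genes. Of these 6, Tyr and Trpm1 were called lower and the rest, Tyrp1, Dct, Slc24a5 and Hps1, were not. Their median difference was -0.22, whereas the 11 without the M-box in this window had a median of -0.45 and 6 called lower.

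The regulators of the lineage did not share the fall of Tyr and Trpm1 as a group. Of 17 tested, 2 were called higher and 2 lower, with a median of 0.02. That median combines opposite shifts. Both arrays of set 2 lay above both of set 1 in 8 of the genes and below them in 7, against 32% and 41% of all genes. Mitf had 5.90, 6.02, 5.59 and 5.56, a difference of -0.39 with an SE of 0.07 (adjusted p 0.0599). Sox10 had 5.12, 5.07, 5.31 and 5.29, a difference of 0.20 (adjusted p 0.116). Neither gene was called by its brightest probe, though the arrays of the sets did not overlap. Met, the receptor of hepatocyte growth factor, had 4.46, 4.38, 2.35 and 2.60 (difference -1.95, SE 0.11, adjusted p 0.0229). Sox9, at -2.69, was the other regulator called lower. By contrast Erbb3 and Ngfr, receptors of neural crest cells, rose by 1.26 (SE 0.13, adjusted p 0.0325) and 1.11 (SE 0.10, adjusted p 0.0303). Erbb3 was dim, at -4.79, -5.17, -3.73 and -3.71, and Ngfr had -3.55, -3.48, -2.29 and -2.52.

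**Figure D4:**
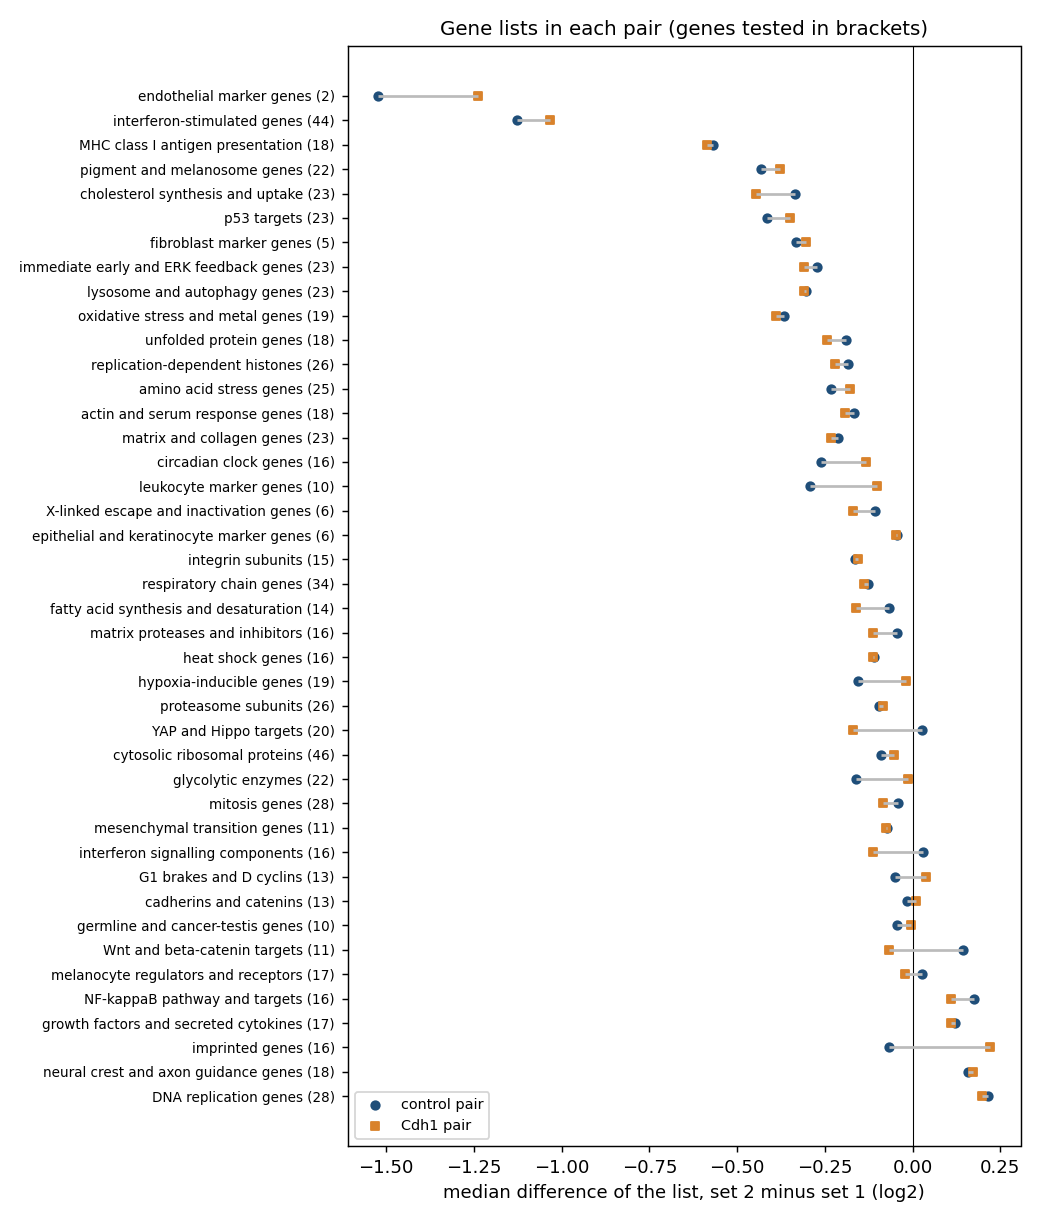
Median difference between the sets (set 2 minus set 1, log2, x axis) of 42 gene lists with at least 1 gene tested, in the control pair (blue circles) and the Cdh1 pair (orange squares), with the number of genes tested in brackets. Interferon-stimulated genes lie near -1.1 in both pairs, while the medians of most other lists lie between -0.6 and 0.2.

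Sterol and stress genes were lower by smaller amounts. Of 23 genes of cholesterol synthesis and uptake, 10 were called lower and 0 higher, with a median of -0.39. With the background filter in at least 1 set 4 were called, and 18 with normexp and quantile normalization. Hsd17b7, a late enzyme, had 1.51, 1.60, 0.65 and 0.80 (difference -0.83, SE 0.06, adjusted p 0.0264). Msmo1, an earlier enzyme of the pathway, gave -0.74 (SE 0.06). Among 19 genes of oxidative stress and metal handling, 9 were called lower and 0 higher, and 5 were called with the filter in at least 1 set. Hmox1, which degrades haem, had 5.45, 5.47, 4.31 and 4.37 (difference -1.12, SE 0.06, adjusted p 0.0229). Srxn1, sulfiredoxin, had 4.15, 4.23, 3.05 and 3.21 (difference -1.06, SE 0.06, adjusted p 0.0234). The metallothionein genes Mt1 and Mt2 gave -0.11 and -0.10 and were not called.

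Amino acid stress genes were called in 1 direction only, though most were not called. Of 25 tested, 6 were called lower and 0 higher, with a median of -0.22. Both arrays of set 2 lay below both of set 1 in 19 and above them in 4, against 41% and 32% of all genes. The cystine transporter gene Slc7a11 had 1.72, 1.80, 0.38 and 0.40 (difference -1.37, SE 0.06, adjusted p 0.0217). The lipoprotein receptor gene Vldlr gave -2.21 (SE 0.11), and Cth, an enzyme of cysteine synthesis, gave -1.14 (SE 0.07). Asns, asparagine synthetase, gave 0.06 and was not called. Of 18 genes of the unfolded protein response, 5 were called lower and 0 higher, with Herpud1 at -0.77 (SE 0.06), Dnajb9 at -0.70 (SE 0.06) and Hspa5, the chaperone BiP, at -0.60 (SE 0.06). Among 16 heat shock genes 3 were called lower, against 7.82% of all genes, and of these Hspb1 gave -1.12 (SE 0.06).

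Targets of p53 were called lower in 10 of 23 tested genes and higher in 1, with a median of -0.39. These 11 calls became 7 with the filter in at least 1 set and 19 with normexp and quantile normalization. Ddit4l had -2.92, -2.84, -4.21 and -4.38 (difference -1.41, SE 0.09, adjusted p 0.0242). Cdkn1a, which encodes the cell cycle inhibitor p21, gave -0.55 (SE 0.08, adjusted p 0.0441), and the p53 antagonist gene Mdm2 gave -0.33 (adjusted p 0.0609). The exception was Gdf15, a secreted stress factor, with -1.01, -0.93, 0.25 and 0.33 (difference 1.26, SE 0.06, adjusted p 0.0223). Cdkn1c, an imprinted inhibitor of the cell cycle, also rose, from -2.78 and -2.80 to -1.02 and -0.95 (difference 1.81, SE 0.06, adjusted p 0.0217).

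Genes of immediate early and ERK feedback responses moved both ways, with 9 of 23 called lower and 4 higher. Fosl2 had 0.27, 0.23, -1.17 and -1.17 (difference -1.42, SE 0.06, adjusted p 0.0217), and Fos gave -1.16 (SE 0.13, adjusted p 0.0357). Myc, a growth regulator, had 0.99, 1.08, 2.30 and 2.11 (difference 1.17, SE 0.10, adjusted p 0.0284), and the ERK target Etv5 gave 1.16 (SE 0.08). Fos and Fosl2 therefore lay on the other side of 0 from Myc and Etv5. Of 28 DNA replication genes, 2 were called higher, E2f1 at 0.71 (SE 0.06, adjusted p 0.0293) and Uhrf1 at 0.47 (SE 0.06, adjusted p 0.0388), with a list median of 0.20. The probe of E2f1 lay in the last 24 rows. Both arrays of set 2 were above both of set 1 in 22 of the 28, against 32% of all genes. Of 28 mitosis genes, 1 was called, Ccnb1 at -0.39 (SE 0.06, adjusted p 0.0482), whose probe also lay in those rows.

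Matrix, adhesion and guidance genes differed gene by gene. Fn1, fibronectin, had 1.93, 1.97, 3.06 and 2.90 (difference 1.03, SE 0.08, adjusted p 0.0278), while Spp1, osteopontin, had 1.57, 1.27, -0.64 and -0.60 (difference -2.04, SE 0.11, adjusted p 0.0229). Lamb1, a laminin chain, gave -1.62 (SE 0.06) and Col1a1 -1.22 (SE 0.12). Of 23 tested matrix genes, 5 were called lower and 1 higher. The actin-binding gene Tagln2 rose from 0.01 and 0.00 to 1.81 and 1.75. In the list of neural crest and axon guidance genes, 5 of 18 were called higher and 1 lower. Its largest rise was that of Sema3c, a secreted semaphorin, with -1.33, -1.02, 0.61 and 0.63 (difference 1.80, SE 0.10, adjusted p 0.0234), followed by Erbb3 and the netrin receptor gene Unc5b at 1.16 (SE 0.07). The integrin chain genes Itga5 and Itga6 went opposite ways, at -1.08 (SE 0.06) and 0.75 (SE 0.09).

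Housekeeping lists had medians close to 0 and few calls. The 46 cytosolic ribosomal protein genes had a median of -0.08 and 0 calls with limma (3 at an unadjusted p under 0.05), and the lowest member was Rpl37 at -0.34 (adjusted p 0.0598). Of 34 respiratory chain genes, 2 were called lower, Cox4i1 at -0.46 and Cox7a2 at -0.41. These lists gave calls below the background shares of 5.33% and 7.82% of genes. Both arrays of set 2 nevertheless lay below both of set 1 in 33 of the 46 ribosomal and 25 of the 34 respiratory chain genes, against 41% of all genes. Glycolytic enzymes gave 3 called higher and 0 lower of 22, with a median of -0.07, and Slc16a3, a lactate transporter, had -1.78, -2.80, -0.61 and -0.83 (difference 1.57, SE 0.23, adjusted p 0.0458). The Cdh1 array of set 1 was well below its control in that gene, and its SE was larger than those of the genes above.

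Markers of other cell types were looked at beside these genes. Of 10 leukocyte markers, 5 were above background on all 4 arrays (Cd68, Cd14, Itgam, Csf1r and Cd3e), and Ptprc, Adgre1 and Tyrobp, which define leukocytes, were at background on all. The summed linear level of the leukocyte markers was 12.7 to 12.8 times the 75th percentile in set 1 and 10.97 to 12.5 times in set 2. Most of it came from Itgam, at 3.44, 3.43, 3.22 and 3.40. A sum follows its brightest gene, so it is not a level of a cell type. Of 7 fibroblast markers 3 were above background, and Col3a1, Dcn, Lum and Thy1 were at background. The fibroblast sums were 3.32 to 3.53 in set 1 and 2.66 to 2.79 in set 2, nearly all from Col1a2 at 1.76, 1.67, 1.43 and 1.36. Of 4 endothelial markers only Pecam1 was above background, with sums of 0.0868 to 0.0952 and 0.0751 to 0.104, and Cdh5, Kdr and Tek were at background. Of 6 keratinocyte and epithelial markers 3 were above background, with sums of 0.136 to 0.141 and 0.134 to 0.138. The part of such cells in the falls of Lcp1, Vwf and Col1a1 was not tested. In these bulk cultures, fewer cells of a kind and less RNA per cell cannot be told apart.

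Some probes were above background in 1 set alone. There were 380 such probes (0.671%) for both arrays of set 1 and neither of set 2, and 261 (0.461%) for set 2 alone. For these a bound was computed, which set the mean of the bright set against that of the dim set, each dim array being raised to its lowest signal well above background where the probe lay under it. Of the 380, 110 were at least 2-fold lower in set 2, by this bound, and 62 of the 261 were at least 2-fold higher. The dopamine receptor gene Drd1 had -2.67 and -2.93 in set 1 and was at least 8.11-fold lower in set 2. Unc93a and Rimbp2 were at least 7.46-fold and 7.37-fold lower, and a further probe of Lcp1 at least 7.15-fold lower. In set 2 alone, Adm, which encodes the vasodilator peptide adrenomedullin, had -1.88 and -2.15 and was at least 14.4-fold higher. Tspan18, Csmd1 and Rasgrf2 were at least 11.1-fold, 9.396-fold and 7.82-fold higher. Of these, the probes of Rimbp2, Tspan18, Csmd1 and Rasgrf2 lay in the last 24 rows, where 15 of the 110 and 19 of the 62 lay.

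Differences also ran along chromosomes. The median difference was -0.16 over 741 genes of chromosome 8, -0.13 over 787 of chromosome 9 and 0.10 over 723 of chromosome 6, against -0.03 over all genes. On chromosome 8, 12.8% of genes were called lower and 2.56% higher, and on chromosome 9, 12.2% and 3.18%. Chromosome 3 was next by share called lower, with 11.8% lower and 2.96% higher, at a median of -0.07. On chromosome 6, 12.03% were called higher and 6.64% lower. Both pairs placed these chromosomes alike, as the chromosome 8 median was -0.15 in each. Runs of 25 neighbouring tested genes, in RefSeq order, went further. The run from Myo5a to Cox7a2 on chromosome 9 had a median of -0.39 with 12 called lower, and 24 of its 25 genes lay below 0. The run from Nol9 to Prdm16 on chromosome 4 had a median of 0.30 and 5 called higher. For comparison, the 1st and 99th percentiles of the 13519 run medians were -0.23 and 0.18. Myo5a, a pigment gene that carries melanosomes, was itself called lower at -0.71.

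**Figure D5:**
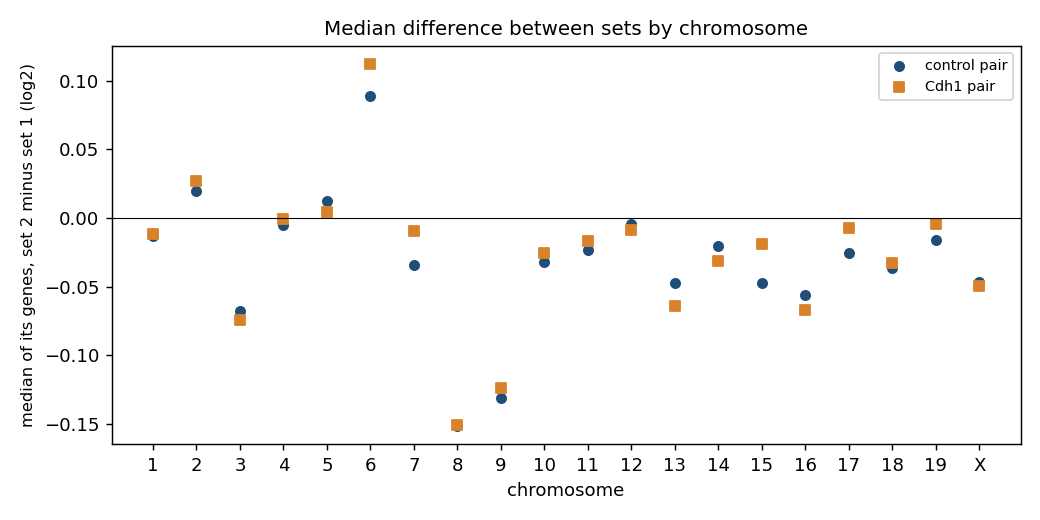
Median difference between the sets (set 2 minus set 1, log2, y axis) over the tested genes of each chromosome (x axis), with the control pair in blue circles and the Cdh1 pair in orange squares. Chromosomes 8 and 9 are lowest, at medians of -0.16 and -0.13, and chromosome 6 is highest, at 0.10.

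Different probes of a gene mostly gave the same direction. Among 6707 further probes, the Pearson correlation of their difference with that of the main probe was 0.749 across probes. Of 722 further probes of called genes, 94.3% had the direction of the main probe and 54.4% were called themselves. By signal, the share of probes called was 12.5% in the dimmest of 4 equal groups, 15.05% and 11.9% in the next and 7.45% in the brightest. By place on the array it ranged from 10.5% to 12.5% over 8 bands of 48 rows, and was 10.3% in the last 24 rows.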

How the data were processed

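Total RNA of 4 B16-F10 cultures was read on Agilent arrays with Feature Extraction 12.0.3.1, per the submitters' processing notes. The deposited scanner files hold each spot's processed intensity, background-subtracted and corrected for trends within the array by the authors' software, on a linear scale. The authors' deposited table of processed intensities was the same signal times 1 factor per array. Here log2 values were taken, each array's 75th percentile over non-control spots was subtracted from the log2 of the deposited intensity, spots marked as outliers were left out, and spots of a probe were averaged. Probes that passed the background flag on each of the 4 arrays were fitted with limma 3.58.1 in R 4.3.3 (lmFit, eBayes), with terms for set and treatment, adjusted p threshold 0.05 (Benjamini-Hochberg), in a script tested on simulated data. The treatment term pairs the control and the Cdh1 arrays across sets, as the labels do. It is not known whether the 2 cultures of a set were split from 1 culture, so p-values measure the spread between these arrays alone.

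Probes were named through their RefSeq accession in the RefSeq table of GRCm38.p6, which gave a symbol to 33767 of 56605 probes (59.7%). The array headers name mm9, so the table served for names, chromosomes and order of genes, and the promoters were read from RefSeq. Of 1006 symbols in 44 lists, 765 were tested. In 46 list entries, tested or not, an older symbol was matched through synonyms. The mitochondrially encoded list had no probe and the Y-linked list no gene above background on all 4 arrays. The members and lists were chosen with earlier results of these data known. The named genes are the 12 largest rises and falls among called genes with an established symbol, up to 5 members per list with the largest differences, called ones first, 4 genes per direction by bound, and line markers; some genes of the lists are not reported here by name. The files held no mean signal column, so normexp (offset 50) used the deposited median intensity of the spot. Other alternatives were quantile normalization, median centring, scaling on spike-in probes, the authors' table, other filters and priors, no treatment term, and leaving out arrays or the last 24 rows. Python 3.11.15 with pandas 2.3.3 and matplotlib 3.10.9 was used.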

Additional observations from a re-analysis of the deposited data

Results flagged for a closer look

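With 2 arrays per set, no group was large enough for a test of outlying samples. In 7 gene lists the median difference between the sets had opposite signs in the control pair and the Cdh1 pair, and this difference between the pairs was not tested. Interferon signalling components had medians of 0.0283 in the control pair and -0.113 in the Cdh1 pair. Melanocyte regulators and receptors had 0.0272 and -0.0218. G1 brakes and D cyclins had -0.0499 and 0.0381. YAP and Hippo targets had 0.028 and -0.17. Wnt and beta-catenin targets had 0.144 and -0.0662. Cadherins and catenins had -0.0158 and 0.0107. Imprinted genes had -0.0685 and 0.22.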

How the results depend on the processing

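The count of 3649 called probes was 3338 with quantile normalization, 3969 with median centring, 5110 with scaling on spike-in probes, 3666 with outlier spots kept, 4000 without the last 24 rows and equal with the authors' table. It moved further with normexp and quantile normalization (10326), no filter on dim probes (0, with 6748 at an unadjusted p under 0.05), the filter in at least 1 set (2165), no replicate block, that is no treatment term (5516), the trend and robust prior (12046) and a 2-fold minimum (675). Leaving out 1 array gave 331 to 735. Of the 3649 calls, 3648 kept their direction with normexp and all those tested did in the other refits. Refits that changed only the filter, the prior or the treatment term could not change it, since they use the same differences. With 1 array left out, the calling itself largely fixes the direction. The same limits hold for the directions of the named genes below. The share called higher was 48.7%, and 58.2% with spike-in scaling. The 553 probes at least 2-fold in both pairs became 223 with normexp, 1411 without the filter, 1821 at 1.5-fold and 525 to 553 under the others; scaling on spike-in probes was added here and for the lists after seeing the data. Probes above background in 1 set alone numbered 339 and 232 without the last 24 rows. Calls in the interferon-stimulated list ranged from 28 to 39, and those of the MHC and pigment lists stayed within 1.5 times. With normexp 18 cholesterol genes and 19 p53 targets were called. With the filter in at least 1 set, 4 cholesterol genes, 5 oxidative stress genes and 7 p53 targets were called. Of 336 list medians under the alternatives, 12 in 6 lists had another sign, all close to 0. Of 1610 values of 108 named genes, 1338 kept direction and side of the threshold, 250 lost the call, 21 gained it and 1 was reversed, Dct with quantile normalization (0.024). Of the 250, 90 were without the filter and 139 with an array left out, and 0 of the 90 called genes changed direction. The cause of these changes was not tested. By construction, the offset of normexp pulls differences of dim probes towards 0. Signal over background limits the dimmest probes, and the number of arrays limits all.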

Other observations

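Genes of the NF-kappaB pathway went both ways, with 5 of 16 tested called higher and 3 lower in set 2, against 5.33% and 7.82% of all genes. The chemokine gene Ccl5 had 3.72, 3.65, 2.20 and 2.24 in control set 1, Cdh1 set 1, control set 2 and Cdh1 set 2, a difference of -1.46 with an SE of 0.07 (limma, adjusted p 0.0221). Bcl3, a nuclear partner of NF-kappaB subunits, had -2.17, -2.15, -0.99 and -0.83, a difference of 1.26 with an SE of 0.07 (adjusted p 0.0231). The inhibitor gene Nfkbie also rose, by 0.57. Among growth factors, 3 of 17 were called higher and 2 lower, and the largest rise was that of Tgfa, a ligand of the epidermal growth factor receptor, at 1.48 with an SE of 0.10 (adjusted p 0.0248). Axin2, a feedback target of Wnt signalling, had -1.75, -1.88, -3.09 and -3.11 (difference -1.28, SE 0.07, adjusted p 0.0229), while the list of Wnt targets had 2 of 11 called higher and 1 lower.

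Lysosome and autophagy genes were called lower in 6 of 23, with 0 higher and a median of -0.29, led by the proton pump subunit gene Atp6v1h at -0.56 (SE 0.06). Replication-dependent histone genes were called lower in 6 of 26, with H2bc4 at -0.78 (SE 0.08), and copies of histone genes are near-identical, so probes may share their targets. Of the germline list, 1 of 10 was called lower and 0 higher, against 7.82% and 5.33% of all genes, and the list median was -0.01. The called gene was Rhox5, with -0.05, -0.04, -1.57 and -1.32 (difference -1.40, SE 0.09, adjusted p 0.0241). Among 16 circadian genes 3 were called lower, against 7.82% of all genes, and the clock output gene Hlf gave -1.08 (SE 0.08).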
